A study of Mus musculus with 4 samples.

Results

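The genes Lyz2, Lyz1, Csf1r, Ly6c2, Ccr2, Adgre1, Cd68, Mpeg1, F13a1 and Cd14, which mark monocytes and macrophages, were followed in RNA sequencing of mouse acute myeloid leukaemia cells. They were chosen by name for their known role, with earlier results of these data known, and 10 of 10 were found among the 24497 gene rows of the deposited table. The groups were 2 Tet2 KO libraries and 2 WT libraries. Means are given with their SD (n = 2). The Tet2 KO cells came from haematopoietic stem cells of Tet2-/- bone marrow, which lacks exon 3 of Tet2, a gene for an enzyme that oxidises methylated cytosine. The WT cells came from the same kind of stem cell of wild-type mice. Cells of both groups were made leukaemic with NRAS, a RAS oncogene, together with AE9a, a truncated product of the AML1-ETO fusion gene. All 4 libraries came from cultures fed with 50 ng/ml of stem cell factor and 10 ng/ml of both IL-6 and IL-3, under selection by puromycin (2 µg/ml) and G418 (1 mg/ml). The labels give no treatment, no animal age and no count of founding clones, and do not state whether replicates were separate cultures, so p-values weigh differences against the scatter of these 4 libraries alone, and that scatter may be technical.

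Monocytes arise from granulocyte-monocyte progenitors, leave the marrow through the chemokine receptor CCR2 and can mature into macrophages, a course that depends on the growth factor receptor CSF1R. Lysozyme is an enzyme that cuts the cell wall of bacteria and is among the most abundant products of myeloid cells, made by monocytes, macrophages and neutrophils alike. In acute myeloid leukaemia with an AML1-ETO fusion, myeloid maturation is held back, and these genes are read as signs of how far it goes.

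In Tet2 KO cells 8 of the 10 genes fell at a limma adjusted p under 0.05, as did 19.5% of all tested genes. After libraries were rescaled by their median ratio 9 fell, against 34.4% of all tested genes. The deepest falls were of Lyz1, Lyz2 and Csf1r, which were 3.27-fold, 2.53-fold and 2.42-fold lower in mean TPM. Lyz1 was low, at 8.32 TPM or less in every library. Its 95% interval, a log2 fold change of -1.91 to -0.92, spans those of Lyz2 and Csf1r, so their order is not settled. Ly6c2, Ccr2, Mpeg1 and Cd68 fell less, and Cd14 least. F13a1 rose 4.5-fold from a very low level. Adgre1 differed by only 1.07-fold, and its direction turned under median-ratio or spike-in scaling of the libraries.

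Values are TPM, which are scaled for transcript length and to a fixed total in each library, so they can be compared between genes but keep no depth. The number of reads behind each value is therefore unknown. Tests were made with limma on log2(TPM + 1) over 11452 genes with at least 1 TPM in at least 2 libraries, and a gene was called at a Benjamini-Hochberg adjusted p under 0.05. All 10 passed that filter, F13a1 through the Tet2 KO libraries alone. Of all tested genes, 54.4% were called higher and 19.5% lower, 73.9% in all, so a call by itself says little here and the size of a change says more. The median of all tested genes lay at a log2 fold change of 0.23. When libraries were rescaled by their median ratio, which brings that median to 0.0023, the shares became 33.3% higher and 34.4% lower, 67.7% in all, and of the 10 genes 9 were lower and F13a1 was higher. Libraries of the 2 groups did not overlap for any of the 10, which held for 86.8% of all tested genes as well, 62.4% with Tet2 KO higher and 24.4% with it lower. Tet2 itself was at 16.98 and 16.95 TPM in Tet2 KO and at 16.62 and 16.98 TPM in WT (log2 fold change 0.013, limma adjusted p = 0.868). A value for the whole gene does not show whether exon 3 is missing, so it does not check the genotype labels. The labelled cell type, AML cells, was checked against markers of other cells: the T cell genes Cd3e and Cd3g, the NK cell gene Ncr1, the B cell genes Pax5 and Ebf1 and the stromal gene Cxcl12 were listed at 0 in all 4 libraries. Other genes of these lists were expressed. The T and NK cell list summed to 128.1 and 128.6 TPM in Tet2 KO and to 50.5 and 51.9 TPM in WT, nearly all of it Nkg7, a granule gene of cytotoxic cells, and its 7 other markers to at most 0.33 TPM. The stromal and endothelial list summed to 186.5 and 194.6 TPM in Tet2 KO and to 268.6 and 266.2 TPM in WT, mostly Pecam1, an adhesion gene shared by endothelial and blood cells, with Pdgfrb, a growth factor receptor gene, at 16.70 and 17.71 TPM in Tet2 KO and at 4.66 and 4.59 TPM in WT. The B cell list summed to 1.15 and 1.59 TPM in Tet2 KO and to 2.68 and 2.79 TPM in WT, with Cd22 at 0.43 and 0.77 TPM in Tet2 KO and at 2.55 and 2.63 TPM in WT. In bulk RNA, fewer monocyte-like cells and less RNA of these genes per cell cannot be told apart.

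**Figure D1:**
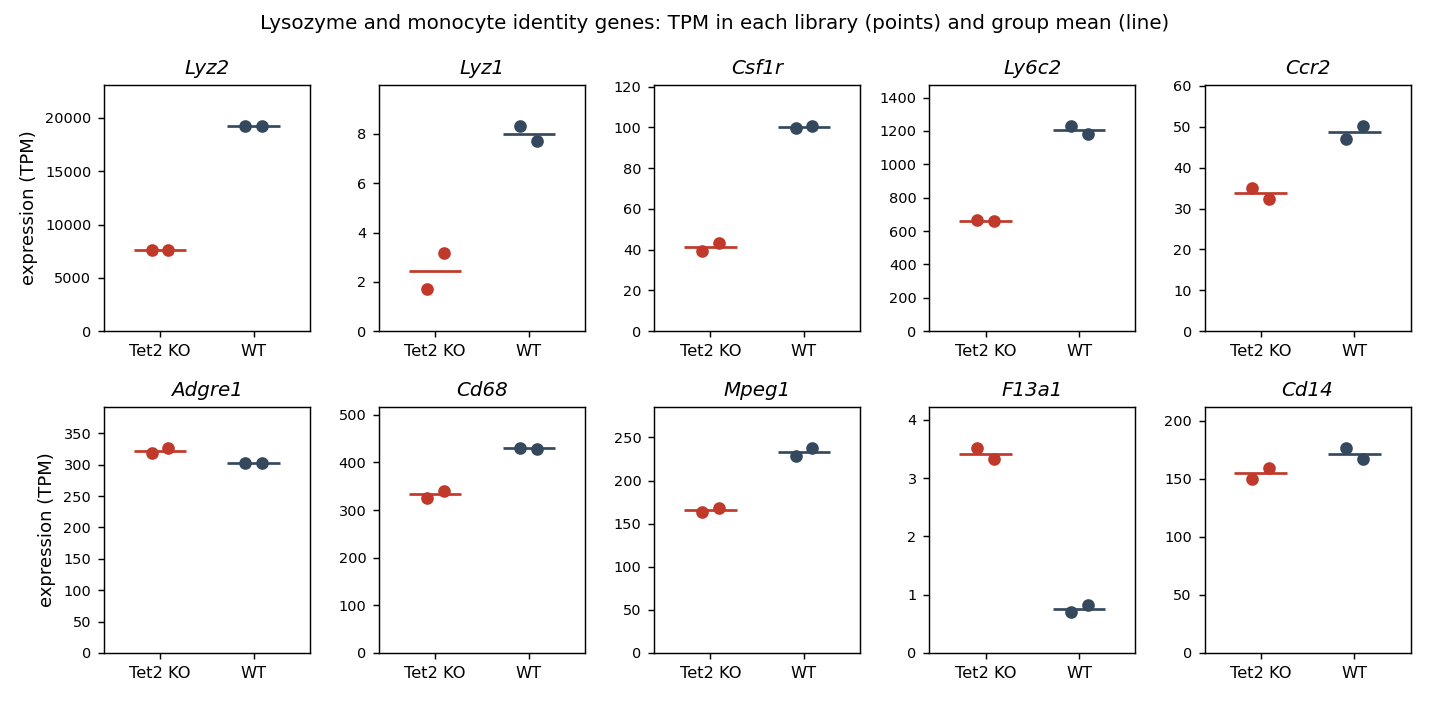
TPM of each gene (vertical axes from 0, each with its own range) in the 2 Tet2 KO libraries, left, and the 2 WT libraries, right; points are libraries and lines are group means. Lyz2 averaged 7613 TPM in Tet2 KO cells and 19235 TPM in WT cells, while Adgre1 averaged 322.5 and 302.5 TPM.

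The 2 lysozyme genes are neighbours on chromosome 10 (mm10), with Lyz2 at 117277331 to 117282321 and Lyz1 at 117287797 to 117292868, both on the minus strand and 5475 bases apart. Each has 4 exons and 444 coding bases, of which 422 are the same in both. The 250 bases before each RefSeq start (GRCm38.p6, minus strand, chr10:117282273-117282522 for Lyz2 and chr10:117292869-117293118 for Lyz1) are shown because the copies are alike there too, and that of Ly6c2 (chr15:75111972-75112221, minus strand) because it is the other abundant gene of the group. Capitals mark AGGAAGT or its reverse complement ACTTCCT, letters found in recognition sites of ETS factors such as PU.1.
Lyz2: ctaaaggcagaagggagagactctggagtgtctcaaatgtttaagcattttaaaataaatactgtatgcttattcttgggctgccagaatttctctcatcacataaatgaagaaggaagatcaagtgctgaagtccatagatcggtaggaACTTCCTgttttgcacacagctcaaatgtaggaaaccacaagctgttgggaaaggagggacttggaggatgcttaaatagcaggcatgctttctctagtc
Lyz1: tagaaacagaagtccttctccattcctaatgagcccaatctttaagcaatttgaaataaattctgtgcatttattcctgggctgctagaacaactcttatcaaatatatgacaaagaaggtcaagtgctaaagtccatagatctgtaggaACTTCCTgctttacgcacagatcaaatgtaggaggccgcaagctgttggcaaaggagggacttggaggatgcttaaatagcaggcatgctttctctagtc
Ly6c2: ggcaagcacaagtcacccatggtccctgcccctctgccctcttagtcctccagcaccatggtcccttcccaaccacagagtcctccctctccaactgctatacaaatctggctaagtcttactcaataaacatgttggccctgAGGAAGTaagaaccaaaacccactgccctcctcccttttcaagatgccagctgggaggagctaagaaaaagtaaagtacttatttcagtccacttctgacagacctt
Of the 100 bases directly before the RefSeq start, 92 are the same in Lyz1 and Lyz2, and the match begins at base -100 in both. The span of Lyz2 given above, from GENCODE, ends at 117282321, so the window of Lyz2 partly lies inside that span. The window of Lyz1 lies outside its span. In the Ly6c2 entry shown it begins at base -107. A second, overlapping entry for Ly6c2 holds 2 matches. The first, at base -141 of that entry, is the same site as the one marked above. On either strand 7.69% of 32851 windows of the same length in the RefSeq table hold these letters. Of the 10 genes 7 had an entry there. Ccr2, Cd68 and Mpeg1 had no match in theirs, and F13a1 had one in the second of its entries. Csf1r, Adgre1 and Cd14 had no entry.

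Lyz2, the myeloid lysozyme gene, stood at 7574.70 and 7652.26 TPM in Tet2 KO libraries and at 19230.84 and 19238.91 TPM in WT libraries. The Tet2 KO libraries differed 1.01-fold and the WT libraries less, against a 2.53-fold gap between the groups. Its log2 fold change was -1.34 (95% interval -1.38 to -1.29, limma adjusted p = 4.64e-17). Lyz2 alone took 0.757 and 0.765% of all transcripts in Tet2 KO cells and 1.92 and 1.92% in WT cells. Its rank by TPM was 5 and 3 in Tet2 KO and 2 and 3 in WT, so it was among the most abundant transcripts in both groups. Under quantile normalization, which gives the top ranks of each library the same value, its log2 fold change was -0.38 (limma adjusted p = 0.342, in a range over alternatives of 8.61e-62 to 0.342).

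Lyz1, the lysozyme gene used chiefly by Paneth cells of the gut, was at 1.73 and 3.17 TPM in Tet2 KO libraries and at 8.32 and 7.70 TPM in WT libraries, a log2 fold change of -1.42 (SE 0.201, limma adjusted p = 9.24e-04). The Tet2 KO libraries differed 1.83-fold, the widest spread between replicates among the 10 genes. Lyz1 made up 0.0228 and 0.0414% of the summed lysozyme transcripts in Tet2 KO and 0.0432 and 0.0400% in WT, which is the same small share in all but the first Tet2 KO library. In all, 16.1% of the 50-base windows of the Lyz1 transcript and 2.06% of its 100-base windows also occur in Lyz2. Whether reads of Lyz2 were assigned to Lyz1 was not tested, so the value of Lyz1 is uncertain. With both genes summed into 1 row, the fold change was the same as that of Lyz2, -1.34.

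Csf1r encodes the receptor for the growth factors CSF1 and IL-34, on which most monocytes and macrophages depend (chromosome 18, 61100598 to 61132149, plus strand). It was at 39.39 and 43.41 TPM in Tet2 KO libraries and at 99.48 and 100.70 TPM in WT libraries. All Tet2 KO values lay well under all WT values, a 2.42-fold fall (log2 fold change -1.26, SE 0.0569, limma adjusted p = 1.01e-11). Its rank among all genes was 3775 and 3504 in Tet2 KO against 1344 and 1346 in WT. Of the ligands, Csf1 fell to 223.4 ± 11.1 TPM in Tet2 KO, against 275.0 ± 2.86 TPM in WT (limma adjusted p = 1.12e-05). Il34 stood at 0 in each Tet2 KO library and at 0.04 TPM in each WT library, and was not tested. The companion list held ligand and signalling genes of the receptor and the PU.1 gene Spi1. Of its 12 tested genes 6 rose and 6 fell (3 rose and 6 fell after median-ratio scaling), with a median log2 fold change of -0.042. In comparison, 54.4% of all tested genes rose and 19.5% fell (33.3% and 34.4% after median-ratio scaling). Cbl, whose product marks the active receptor for breakdown, rose to 74.9 ± 5.23 TPM, against 38.5 ± 0.679 TPM in WT. Pik3cd, a phosphoinositide kinase subunit gene, rose to 217.1 ± 11.02 TPM, against 118.5 ± 0.332 TPM in WT, and Inpp5d, the gene of the phosphatase SHIP1 that opposes it, to 157.1 ± 6.06 TPM, against 107.3 ± 0.177 TPM in WT. Sirpa, a receptor that restrains phagocytosis, fell to 271.8 ± 11.2 TPM, against 385.9 ± 1.68 TPM in WT.

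Ly6c2 encodes the surface antigen Ly6C, high on classical, inflammatory monocytes (chromosome 15, 75108158 to 75111970, minus strand). It had 663.39 and 662.54 TPM in Tet2 KO libraries against 1229.75 and 1183.74 TPM in WT libraries. The Tet2 KO libraries were nearly equal, and both were far under either WT value (log2 fold change -0.86, SE 0.0340, limma adjusted p = 1.75e-12). Ly6c1, a close copy with 384 of 393 aligned coding bases the same, was listed at 0 and 0.10 TPM in Tet2 KO and at 0.19 and 0 TPM in WT. How reads were divided between these copies was not tested. Of the other Ly6 genes, Ly6a, the stem cell antigen Sca-1, rose to 227.8 ± 2.81 TPM, against 175.8 ± 8.11 TPM in WT (limma adjusted p = 1.27e-06), and Ly6g, a neutrophil antigen gene, fell to 9.76 ± 0.679 TPM, against 12.9 ± 0.488 TPM in WT (limma adjusted p = 7.46e-04). Ly6c2 therefore moved in the opposite direction to Ly6a, and Ly6e did not pass the test (log2 fold change 0.025, limma adjusted p = 0.514) but was called lower after median-ratio scaling (-0.22).

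Ccr2, the receptor through which monocytes leave the marrow (chromosome 9, 124101950 to 124113557, plus strand), was at 35.11 and 32.32 TPM in Tet2 KO libraries and at 47.10 and 50.19 TPM in WT libraries. The gap between the groups was wider than the spread within either, and Ccr2 fell by 0.52 on the log2 scale (SE 0.0615, limma adjusted p = 1.25e-06). Of its ligand genes, Ccl2 fell to 376.4 ± 13.96 TPM in Tet2 KO, against 510.5 ± 3.54 TPM in WT (limma adjusted p = 3.24e-08). Ccl12 was at 1.91 ± 0.834 TPM in Tet2 KO and 6.61 ± 1.90 TPM in WT (limma adjusted p = 0.0184). Ccl7 was at 177.7 ± 2.39 TPM in Tet2 KO and 165.9 ± 1.11 TPM in WT, higher on the deposited scale (log2 fold change 0.099, limma adjusted p = 0.0462) and lower after median-ratio scaling (-0.15). Among 11 other chemokine receptor genes 3 could be tested, of which 1 rose and 2 fell. Ccr1 fell to 187.2 ± 3.23 TPM, against 252.2 ± 8.11 TPM in WT. Ccrl2, a receptor that binds chemerin without signalling, rose to 10.3 ± 0.269 TPM, against 5.595 ± 0.799 TPM in WT. Cx3cr1, the receptor of patrolling monocytes, stayed at or under 0.19 TPM in every library.

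Adgre1 encodes the adhesion receptor that serves as the standard surface marker of mouse macrophages (chromosome 17, 57358691 to 57483527, plus strand). It was at 317.94 and 327.00 TPM in Tet2 KO libraries and at 301.90 and 303.10 TPM in WT libraries, so it was slightly higher in Tet2 KO on this scale (log2 fold change 0.092, SE 0.0384, limma adjusted p = 0.041). After median-ratio scaling it was lower (log2 fold change -0.15, limma adjusted p = 0.00418), and it was also lower relative to the spike-in RNAs (-0.20, limma adjusted p = 2.24e-04). Without either WT library the call was lost (limma adjusted p = 0.219 and 0.187), as it was without Tet2 KO replicate 2 (limma adjusted p = 0.0965), and the adjusted p ranged over alternatives from 2.24e-04 to 0.219. Adgre1 was 8.07 and 7.53 times as abundant as Csf1r in the Tet2 KO libraries and 3.03 and 3.01 times in the WT libraries, so the balance of these macrophage markers was not the same, and a ratio within a library does not depend on its scaling. Of the same receptor family, Adgre5, the gene of CD97, rose to 59.9 ± 2.11 TPM, against 19.4 ± 0.608 TPM in WT (limma adjusted p = 1.02e-12), and Adgre4 stayed at or under 0.07 TPM.

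Cd68, a glycoprotein gene of the macrophage lysosome (chromosome 11, 69664213 to 69666153, minus strand), was at 326.14 and 340.04 TPM in Tet2 KO libraries and at 430.75 and 427.85 TPM in WT libraries (log2 fold change -0.37, SE 0.0382, limma adjusted p = 2.76e-07). Mpeg1, which encodes the pore-forming protein perforin-2 of phagocytes (chromosome 19, 12460779 to 12465283, plus strand), was at 163.88 and 168.10 TPM in Tet2 KO libraries and at 227.89 and 238.06 TPM in WT libraries (log2 fold change -0.49, SE 0.0431, limma adjusted p = 3.74e-08). Both effector genes were lower in each Tet2 KO library than in either WT library, by 1.29-fold and 1.40-fold in mean TPM. Of 6 related pore-forming genes none could be tested, and the lymphocyte perforin gene Prf1 stayed at or under 0.47 TPM.

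Cd14 encodes the co-receptor that hands bacterial lipopolysaccharide to TLR4 (chromosome 18, 36725067 to 36726798, minus strand). It was at 150.07 and 159.42 TPM in Tet2 KO libraries and at 176.65 and 166.58 TPM in WT libraries. The groups did not overlap but lay close. Cd14 differed by -0.15 on the log2 scale (SE 0.0476, limma adjusted p = 0.0104), and -0.39 after median-ratio scaling. The call was lost without Tet2 KO replicate 1 (limma adjusted p = 0.0611) or WT replicate 1 (limma adjusted p = 0.193), in a range over alternatives of 7.42e-11 to 0.193. The companion list held genes of CD14 partners, of TLR4 signalling and of related receptors. Of its 14 tested genes 7 rose and 4 fell, or 5 and 4 after median-ratio scaling. Of all tested genes 54.4% rose and 19.5% fell, or 33.3% and 34.4% after that scaling. The falls were of the receptor genes Tlr1, Tlr2 and Cd180 and, least, of Myd88 (log2 fold change -0.13). Tlr4 itself was at 50.91 and 43.14 TPM in Tet2 KO and at 29.13 and 31.16 TPM in WT, a rise (log2 fold change 0.62, limma adjusted p = 1.09e-05). Ly96, the gene of its partner MD-2, was at 7.42 and 5.32 TPM in Tet2 KO and at 6.01 and 9.21 TPM in WT and did not pass the test (log2 fold change -0.21, limma adjusted p = 0.515). Ticam2, an adaptor gene, rose to 17.7 ± 1.74 TPM, against 6.22 ± 0.566 TPM in WT, and Lbp, the gene of the lipopolysaccharide-binding protein, to 33.5 ± 2.32 TPM, against 15.4 ± 0.332 TPM in WT. Tlr1 fell to 1.47 ± 0.0849 TPM, against 5.73 ± 0.403 TPM in WT, and Cd180, a TLR4-like receptor gene, to 51.5 ± 0.757 TPM, against 97.7 ± 4.53 TPM in WT.

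F13a1, the A subunit of coagulation factor XIII, a transglutaminase of monocytes and platelets (chromosome 13, 36867178 to 37050244, minus strand), was the one gene of the 10 that was higher on every scale tried. It was at 3.52 and 3.32 TPM in Tet2 KO libraries and at 0.70 and 0.82 TPM in WT libraries. The ratio of means was 4.5, which is 1.33 as a log2 fold change of TPM + 1 (SE 0.120, limma adjusted p = 4.86e-08). F13a1 passed the filter of 1 TPM through the Tet2 KO libraries alone, so the filter favoured a rise and this p-value is no separate support for it. Adding 0.1 TPM in place of 1 gave 2.04, and adding 5 TPM gave 0.55. It was the least abundant of the 10 in WT. Of 10 tested genes of coagulation and transglutaminases, 6 rose and 4 fell, where 54.4% of all tested genes rose and 19.5% fell. The list summed to 721.3 and 730.8 TPM in Tet2 KO and to 871.6 and 868.0 TPM in WT. The other transglutaminase genes Tgm2 and Tgm1 rose, to 52.9 ± 3.22 TPM, against 16.4 ± 0.0212 TPM in WT, and to 13.1 ± 0.898 TPM, against 6.94 ± 0.120 TPM in WT. Tfpi, an inhibitor of coagulation, rose to 6.82 ± 0.106 TPM, against 0.400 ± 0.297 TPM in WT, and Serpinb2, an inhibitor of plasminogen activators, to 121.7 ± 3.00 TPM, against 54.7 ± 1.61 TPM in WT. Plaur fell to 350.2 ± 0.622 TPM, against 571.7 ± 0.184 TPM in WT, and F10 to 50.6 ± 1.97 TPM, against 79.9 ± 1.36 TPM in WT. Plau and F7 fell less. The partner subunit gene F13b was listed at 0 in all 4 libraries. F13a1 is also a platelet gene: of 6 tested megakaryocyte and platelet markers 5 rose and 1 fell, their 8 genes summing to 211.8 and 228.3 TPM in Tet2 KO and 87.97 and 85.58 TPM in WT, with none at 0 in all libraries. The part of those markers in the value of F13a1 was not tested.

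**Figure D2:**
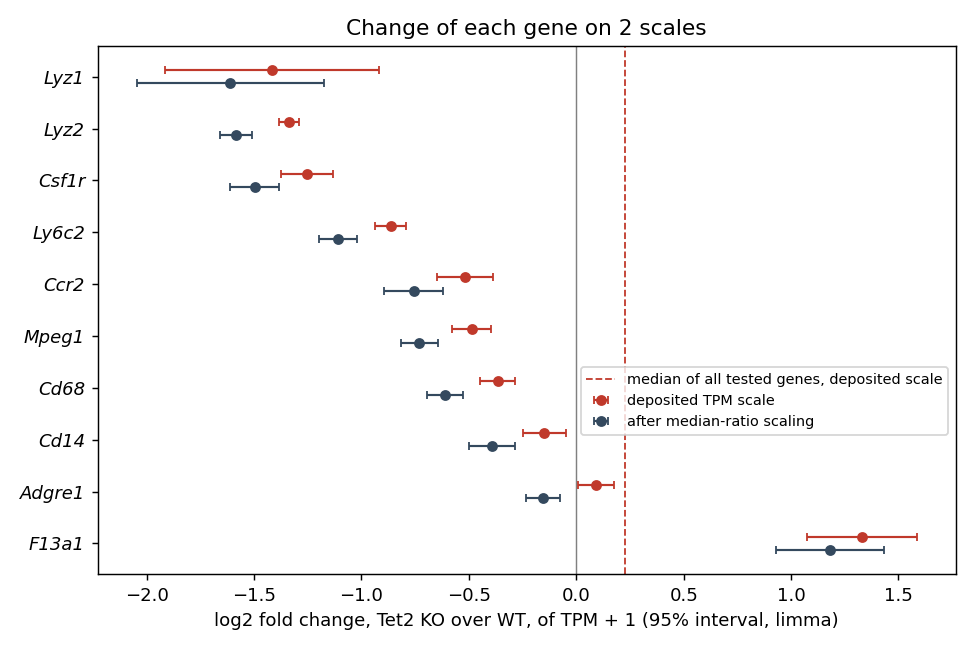
Log2 fold change of TPM + 1, Tet2 KO over WT (horizontal axis), of each gene on the deposited scale and after median-ratio scaling, with 95% intervals from limma; the dashed line is the median of all tested genes on the deposited scale, 0.23. Lyz1 and Lyz2 lie furthest left, at -1.42 and -1.34, F13a1 lies furthest right, and Adgre1 is the one gene that crosses 0 between scales, at 0.092 and -0.15.

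Ranks by TPM do not move when a whole library is rescaled. By rank among gene rows, Ly6c2 stood at 178 in both Tet2 KO libraries and at 126 and 133 in WT. Mpeg1 stood at 835 and 810 in Tet2 KO and at 568 and 538 in WT, and Ccr2 at 4159 and 4532 in Tet2 KO and at 2872 and 2719 in WT. Adgre1 stood at 379 and 369 in Tet2 KO and at 400 and 401 in WT, and Cd68 at 369 and 351 in Tet2 KO and at 288 in both WT libraries. Adgre1 and Cd68 were therefore close neighbours in Tet2 KO cells and further apart in WT cells. By mean TPM the order in WT was Lyz2, Ly6c2, Cd68, Adgre1, Mpeg1, Cd14, Csf1r, Ccr2, Lyz1 and F13a1. In Tet2 KO the last places were taken by F13a1 at 3.42 ± 0.141 TPM and Lyz1 at 2.45 ± 1.02 TPM. F13a1 was above Lyz1 in both Tet2 KO libraries, narrowly in replicate 2 (3.32 against 3.17 TPM). Cd68 averaged 333.1 ± 9.83 TPM and Adgre1 322.5 ± 6.41 TPM. Cd68 was slightly above Adgre1 in both Tet2 KO libraries (326.14 against 317.94 TPM and 340.04 against 327.00 TPM).

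**Figure D3:**
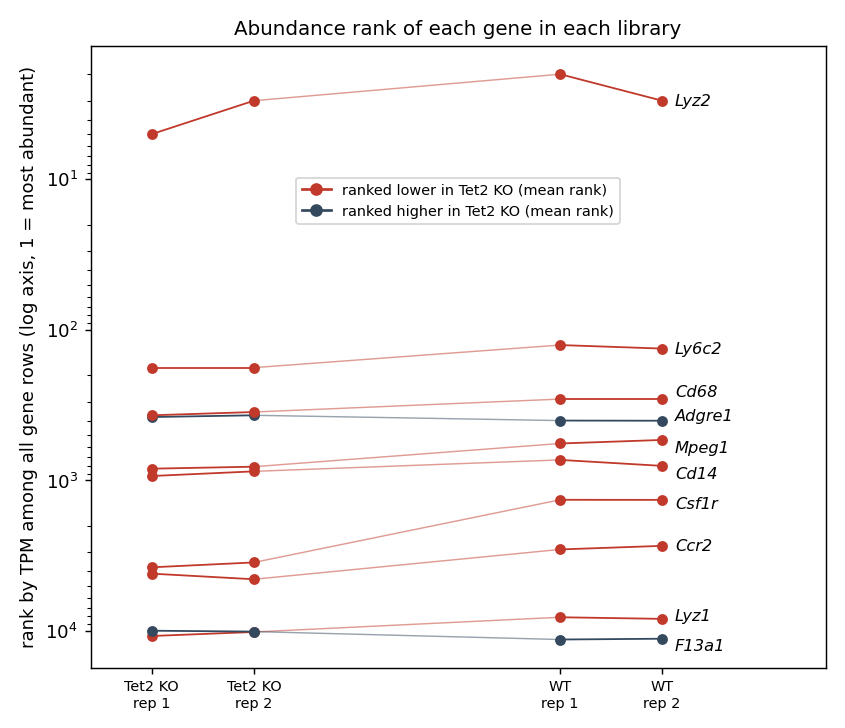
Rank by TPM among all gene rows (logarithmic vertical axis, 1 is the most abundant) of each gene in each library, Tet2 KO left and WT right; points are libraries. Csf1r stood at 3775 and 3504 in Tet2 KO and at 1344 and 1346 in WT, while Adgre1 and F13a1 ranked higher in Tet2 KO.

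The genes whose profile over the 4 libraries lay closest to a given gene were sought among 7740 others averaging at least 10 TPM, by Euclidean distance of centred log2(TPM + 1). For Lyz2 these were Clec4a2, a C-type lectin gene of myeloid cells, Tfec, a transcription factor gene of macrophages, and Chil3, a chitinase-like gene of monocytes and macrophages, at distances of 0.0287, 0.0362 and 0.0441. For Csf1r they were Tmem109, LOC100038947 and Myo7a, at 0.0532 to 0.0803, and for Ccr2 Papss2, Hmgn2 and Pno1, at 0.0103 to 0.0394. With 4 libraries in 2 groups, a short distance means little more than a like difference between the groups.

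Companion lists of monocyte genes moved unevenly. Of 80 tested companion genes in all, 36 rose and 35 fell with a median log2 fold change of 0.0056, against 0.23 for all genes, and 28 rose and 40 fell after median-ratio scaling. The shares of all tested genes were 54.4% higher and 19.5% lower, or 33.3% and 34.4% after median-ratio scaling. Of 10 tested classical monocyte genes, 6 fell, 3 rose and 1 did not pass, or 7 fell and 3 rose after median-ratio scaling, with a median of -0.72. S100a4, a calcium-binding protein gene, fell to 634.7 ± 33.4 TPM, against 2096 ± 4.76 TPM in WT, and Hp, the haptoglobin gene, to 21.7 ± 0.134 TPM, against 63.3 ± 1.13 TPM in WT. Cd93, a receptor gene of progenitors and monocytes, rose to 643.97 ± 24.7 TPM, against 225.5 ± 4.65 TPM in WT. On the log2 scale S100a4 was at -1.72 and Cd93 at 1.51, so the list held both deep falls and large rises.

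Of 10 tested tissue macrophage genes, 7 fell and 2 rose (8 and 1 after median-ratio scaling), with a median of -0.55. Trem2, a lipid-sensing receptor gene, fell to 21.7 ± 0.658 TPM, against 125.02 ± 1.01 TPM in WT, and Msr1, a scavenger receptor gene, to 10.4 ± 0.0141 TPM, against 52.8 ± 1.59 TPM in WT. Mertk, a receptor gene for engulfing dead cells, fell to 1.96 ± 0.205 TPM, against 6.36 ± 0.438 TPM in WT. The 2 that rose were Apoe, to 9.215 ± 0.332 TPM, against 4.595 ± 0.969 TPM in WT, and Axl. Axl was at 3.505 ± 0.0495 TPM in Tet2 KO and 2.415 ± 0.0778 TPM in WT, and did not pass after median-ratio scaling. The other 12 genes of that list were below the filter, C1qa at 0 in all libraries, and the resident macrophage genes Cd163, Marco, Timd4 and Vsig4 at or under 0.50 TPM. Of 8 tested non-classical monocyte genes, 4 rose and 1 fell (4 and 2 after median-ratio scaling), with a median of 0.33. On the deposited scale this lay near all tested genes, of which 54.4% rose and 19.5% fell, with a median of 0.23. Nr4a1, the transcription factor gene that non-classical monocytes need, rose to 37.4 ± 2.06 TPM, against 17.7 ± 0.764 TPM in WT. Itgal, an integrin gene, rose to 215.1 ± 11.9 TPM, against 109.5 ± 0.643 TPM in WT. Spn, the CD43 gene, rose to 91.5 ± 1.17 TPM, against 58.97 ± 0.474 TPM in WT. The gene of this list that fell was Bcl2a1a, to 61.6 ± 0.0424 TPM, against 76.6 ± 0.481 TPM in WT. Of 9 tested monocyte transcription factor genes, 5 rose and 3 fell, or 4 and 3 after median-ratio scaling. Spi1, which encodes PU.1, was at 219.87 and 228.34 TPM in Tet2 KO and at 305.34 and 295.44 TPM in WT (log2 fold change -0.42, limma adjusted p = 1.18e-07), and Irf8, which directs cells to the monocyte course, fell to 13.3 ± 0.502 TPM, against 31.1 ± 0.0778 TPM in WT. Egr1, an immediate early gene linked to macrophage maturation, rose to 262.6 ± 3.31 TPM, against 139.7 ± 2.35 TPM in WT.

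**Figure D4:**
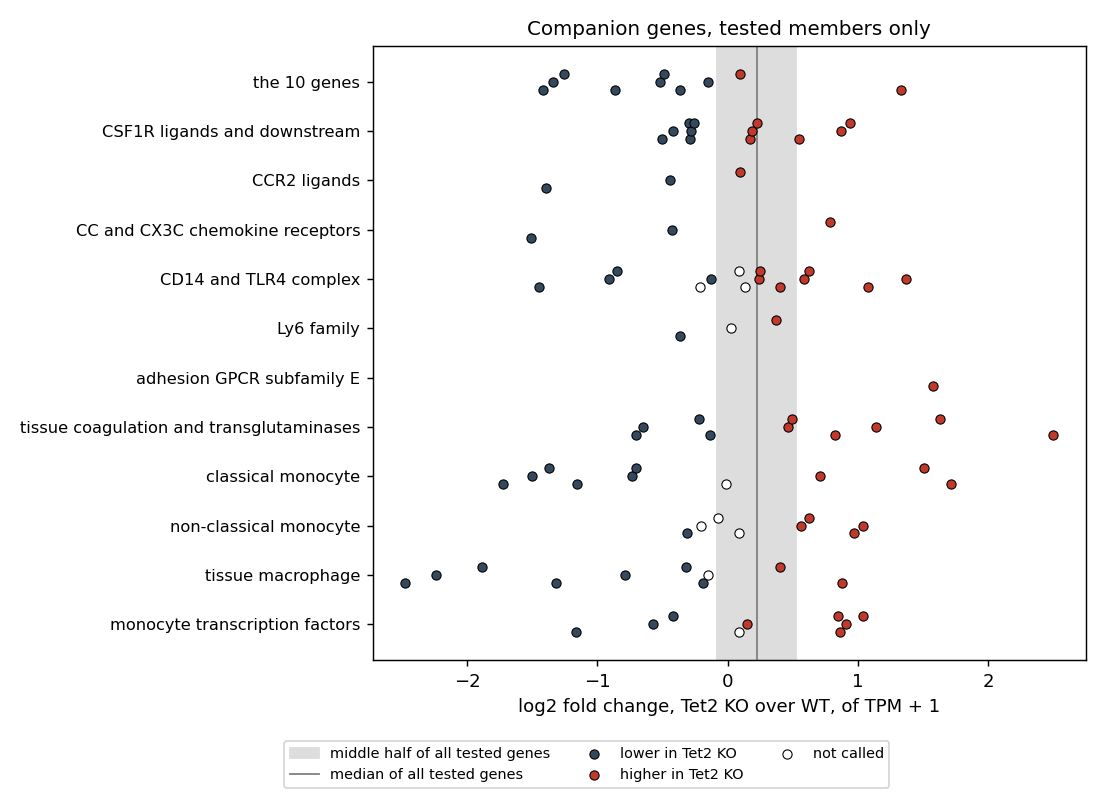
Log2 fold change of TPM + 1, Tet2 KO over WT (horizontal axis, deposited scale), of the 10 genes and of the tested genes of 11 companion lists (1 point a gene, filled where called in limma); the grey band is the range between the quartiles of all tested genes, -0.080 to 0.52. The 10 genes lie mostly left of the band, and the classical monocyte and tissue macrophage lists reach far to both sides of 0 or to the left, with Trem2 at -2.47.

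Markers of other blood cells differed between the groups as well. For comparison, 54.4% of all tested genes were higher and 19.5% lower, or 33.3% and 34.4% after median-ratio scaling. Of 14 tested neutrophil markers 12 fell and 2 rose. Mpo rose to 156.6 ± 5.70 TPM, against 91.8 ± 0.389 TPM in WT. Csf3r rose to 31.9 ± 2.00 TPM, against 20.3 ± 0.318 TPM in WT. The 15 neutrophil markers together summed to 15292 and 14889 TPM in Tet2 KO and to 32688 and 32547 TPM in WT, with none at 0 in all libraries. Lysozyme is a neutrophil product too, and the part of these markers in the fall of Lyz2 was not tested. Among 9 tested markers of mast cells and basophils, 3 rose and 6 fell, and the list of 12 summed to 5381 and 5195 TPM in Tet2 KO and to 2318 and 2332 TPM in WT, of which the carboxypeptidase gene Cpa3 took 5030 and 4847 TPM in Tet2 KO and 1716 and 1750 TPM in WT, with none at 0 in all libraries. The 11 markers other than Cpa3 summed to 350.4 and 348.3 TPM in Tet2 KO and to 601.7 and 582.0 TPM in WT, the opposite direction to the whole list. Of 9 tested progenitor genes 8 rose and 1 fell, or 7 and 2 after median-ratio scaling. Among them was Kit, the stem cell factor receptor gene and, like Csf1r, a class III receptor tyrosine kinase, at 205.3 ± 5.81 TPM in Tet2 KO and 11.8 ± 0.255 TPM in WT. The 10 erythroid markers, with Hba-a2 and Hbb-bs at 0, summed to 339.0 and 339.2 TPM in Tet2 KO and to 127.5 and 121.9 TPM in WT. Of these the globin gene Hbb-bt took 298.3 and 300.9 TPM in Tet2 KO and 78.7 and 70.7 TPM in WT, and the other 9 summed to 40.7 and 38.3 TPM in Tet2 KO and to 48.9 and 51.3 TPM in WT. Of 3 tested erythroid markers, Hbb-bt and Gata1 rose and Tfrc, the transferrin receptor gene, fell. The 9 dendritic cell markers, with Cd209a at 0, summed to 131.9 and 134.2 TPM in Tet2 KO and to 27.4 and 24.9 TPM in WT. Of these the lectin gene Clec10a took 128.4 and 131.4 TPM in Tet2 KO and 17.8 and 15.9 TPM in WT, and the other 8 summed to 3.51 and 2.80 TPM in Tet2 KO and to 9.69 and 9.01 TPM in WT. Of 2 tested dendritic cell markers, Clec10a rose and Batf3, a transcription factor gene, fell. The 9 eosinophil markers summed to 59.8 and 59.2 TPM in Tet2 KO and to 50.7 and 52.6 TPM in WT. Without Siglecf they summed to 1.52 and 1.74 TPM in Tet2 KO and to 17.8 and 17.3 TPM in WT. Of 3 tested eosinophil markers, Siglecf, the most abundant, rose and 2 fell. The erythroid, dendritic and eosinophil sums thus turn in direction without their most abundant gene. The part of any of these in the change of the 10 genes was not tested.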

How the data were processed

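RNA sequencing was done on 2 Tet2 KO and 2 WT libraries. QIAzol was used to extract RNA and a KAPA stranded kit to make mRNA libraries, per the labels' protocols. The submitters' processing notes name STAR, RSEM and mm10 without versions. The authors deposited TPM with the same total in each library within rounding, including 92 ERCC spike-in rows that took 5.33 to 5.48% in Tet2 KO and 4.38 to 4.43% in WT; they were left out of the tests. TPM keep no depth, so no count or interval of counting error was computed.

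Genes were tested with limma 3.58.1 in R 4.3.3 (intensity trend, robust variance with statmod 1.5.0, two-sided), after checks on simulated data. Log2 fold changes are of TPM + 1 and understate those of low genes. Positions come from GENCODE M21, and promoter sequences from RefSeq on GRCm38.p6, the same assembly as mm10. Sequences were aligned with Biopython 1.88, and figures drawn with matplotlib 3.10.9.

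The 10 genes and the companion lists were chosen with earlier results of these data known. From each companion list that is not a list of other cell types, up to 4 called genes with the largest log2 fold change and averaging 5 TPM or more in either group were candidates to be named, with ligands, partners and close copies of the 10 genes. Spi1, Ly6e, Bcl2a1a, Tlr2, Myd88, single markers of other cell types and genes at or near 0 were named after their values were seen. Alternatives were a block for replicate number, a pseudocount of 0.1 or 5, testing without a filter or with one of 5 TPM, median-ratio, quantile and spike-in scaling, rescaling without Lyz1 and Lyz2, summing close copies, limma without trend or robust estimation, and leaving out each library. A correction for GC content and transcript length on top of median-ratio scaling (known for 99.2% of tested genes) was added after the data had been seen. Some genes that this rule names are not reported here.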

Additional observations from a re-analysis of the deposited data

How the results depend on the processing

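Lyz1, Csf1r, Ly6c2, Ccr2, Cd68 and Mpeg1 fell, and F13a1 rose, with an adjusted p under 0.05 in limma under every alternative that could test them. F13a1 could not be tested with a filter of 5 TPM or without either Tet2 KO library in turn, since it then missed the filter. In the main test it passed through the Tet2 KO libraries alone, so the filter favoured a rise. Rescaling without the lysozyme genes gave no value for them, and summing the copies none for Lyz1. Lyz2 fell under all alternatives run but was not called after quantile normalization (-0.38). Adgre1 turned to -0.15 after median-ratio scaling, -0.20 relative to the spike-ins and -0.16 with the added length and GC correction. It lay below 0 in those 3 of 18 settings alone, and not under quantile normalization. It stayed at 0.092 but lost its call with the replicate block, with no filter and in limma without trend. Without single libraries it lay between 0.072 and 0.11. Cd14 stayed at -0.15 but lost its call in limma without trend, and lay between -0.19 and -0.11 without single libraries.

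Of the 10 genes, 1 and not 2 was called higher with the replicate block, with no filter, with the filter of 5 TPM, after median-ratio or spike-in scaling, without trend and with the length and GC correction; without single libraries the count was 0 to 1. The number of all genes higher and lower moved to 3815 and 3936 with median-ratio scaling, 3915 and 3741 with quantile normalization, 3394 and 4324 with spike-in scaling and 3652 and 4213 with the length and GC correction, against 6225 and 2238. By construction, median-ratio and spike-in scaling lower every Tet2 KO value against WT.

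The replicate block called 8390 genes in place of 8463. The labels do not say that a number marks a shared culture, and the deviations of same-numbered libraries had a correlation of -0.0561 over genes, so the numbers were not taken as pairs. Of the values for single lists 406 were within 1.5 times the main count and 36 were not.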
